A study of Oryza sativa with 10 samples.

Results

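The phenylpropanoid pathway turns phenylalanine into the building blocks of lignin and of flavonoids. Phenylalanine ammonia-lyase (PAL) removes ammonia from phenylalanine. After a hydroxylation step, 4-coumarate:CoA ligase (4CL) activates hydroxycinnamic acids as CoA esters. From there one branch leads through caffeoyl-CoA methyltransferase (CCoAOMT), cinnamoyl-CoA reductase (CCR) and cinnamyl alcohol dehydrogenase (CAD) to the monolignols, which laccases and peroxidases couple into lignin in the wall, and the other leads through chalcone synthase and chalcone isomerase to flavonoids. The genes described here are the 104 of 37727 annotated rice loci whose description names one of these enzymes. They include 31 chalcone enzymes, 22 laccases, 12 CAD, 12 CCR, 11 PAL, 11 4CL and 3 CCoAOMT genes. The 4CL group holds 5 numbered ligases and 6 genes annotated as ligase-like.

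The libraries came from wild-type rice (Oryza sativa, cultivar Nijinokirameki) grown in paddy fields in 2024 and sampled 5 days after flowering. Under green manure (GM), hairy vetch (Vicia villosa) was plowed into the soil and no chemical fertilizer was given. Under chemical fertilizer (CF), the control, the basal dose was 56 kg/ha of N, 176 kg/ha of PO4 and 56 kg/ha of K. Endosperm had 2 GM and 2 CF libraries, each from spikelets of 1 plant with the embryo taken off, and flag leaf had 3 GM and 3 CF libraries. The origin of the leaf replicates (1 plant or several) and the number of plots per treatment are not stated, so p-values measure the spread between these samples and a field difference cannot be told apart from the treatment. The study asked how green manure bears on heat resilience at grain filling; no temperature of a sample was used here.

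Library totals ran between 12200510 and 25827356 uniquely assigned exon reads. Levels are given as read counts scaled to a common library size (CPM) normalised over all 10 libraries by the trimmed mean of M-values (TMM); they are not corrected for gene length, so they are set side by side between libraries and not between genes. The tissue labels were checked against markers. Summed levels of 49 storage-protein and granule-bound starch synthase genes were 47633 to 64541 CPM in GM endosperm and 61545 to 81319 CPM in CF endosperm, against at most 22.3 CPM in any leaf library. Endosperm libraries also held light-harvesting and Rubisco small-subunit RNA, with sums of 1726 to 1729 CPM under GM and 2011 to 2848 CPM under CF, and oleosin and peroxiredoxin RNA typical of embryo and aleurone. In bulk samples, fewer cells of a type and less RNA per cell cannot be told apart.

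Of the 104 genes, 27 had no read in any library and 77 had at least 1. After the filter on low counts, 52 were tested in endosperm and 44 in flag leaf, 57 in at least 1 tissue and 39 in both. A gene is said to have changed where edgeR's quasi-likelihood test gave a Benjamini-Hochberg adjusted p under 0.05 over all genes tested.

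In the flag leaf, 3 of the 44 tested genes were higher under GM and 0 were lower: the ligase 4CL5, the ligase-like ACS6 and the chalcone reductase homologue OsAKR5 (Os04g0167800). Over all 20208 genes tested in the leaf, 2.94% changed, 2.47% higher and 0.47% lower. Of the 44 genes, 30 had a positive and 14 a negative log2 fold change, 13 (29.5%) had an unadjusted p under 0.05, beside 16.6% of all genes tested, and the median was 0.21, beside 0.00 over all genes tested. Leaving out single libraries moved the count of 3 to 0 without CF replicate 2 or GM replicate 3, to 1 without CF replicate 3 or GM replicate 2, and to 6 without GM replicate 1, and 0 were called when all 10 libraries shared 1 fit. Calls over all genes, 499 higher and 95 lower, moved as well. They became 35 and 5 without CF replicate 2, and 63 and 7 without CF replicate 3. Without GM replicates 1, 2 and 3 they were 729 and 204, 262 and 51, and 358 and 40. In the fit of all 10 libraries they were 268 and 67.

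By step, 9 of 11 ligase and ligase-like genes were positive in the leaf, 2 of them called, with a median log2 fold change of 0.26. All 4 CAD genes tested were positive (median 0.36, none called), as were 5 of 6 PAL genes (median 0.93, none called). The CCR genes were divided, with 5 positive and 4 negative (median 0.08, none called), and the CCoAOMT genes had 1 positive and 2 negative (median -0.25, none called). Of the 9 chalcone enzymes tested, 4 were positive, 1 of them called, and 5 were negative (median -0.14).

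4CL5 (Os08g0448000) encodes a 4-coumarate:CoA ligase annotated to lignin synthesis and wounding. Its levels were 10.9, 13.9 and 14.4 CPM in GM leaves, against 7.45, 6.09 and 3.92 CPM in CF leaves. Every GM leaf lay above every CF leaf, and the log2 fold change was 1.20 ± 0.21 (SE; edgeR adjusted p = 0.018, n = 3 each). The call was lost without CF replicate 2 (edgeR adjusted p = 0.091) and without GM replicate 3 (edgeR adjusted p = 0.059).

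ACS6 (Os01g0901600), a 4CL-like gene, had 4.46, 5.33 and 4.74 CPM in GM leaves, against 3.00, 3.22 and 2.27 CPM in CF leaves. The groups did not overlap, and the log2 fold change was 0.80 ± 0.19 (SE; edgeR adjusted p = 0.048, n = 3 each). OsAKR5 (Os04g0167800) had 29.7, 36.2 and 34.4 CPM in GM leaves, against 26.6, 24.8 and 19.7 CPM in CF leaves. These groups did not overlap either, and the log2 fold change was 0.51 ± 0.12 (SE; edgeR adjusted p = 0.041, n = 3 each). Of the single leaf replicates, leaving out GM replicate 1 was the only removal that kept the ACS6 call, and leaving out GM replicate 1 or CF replicate 1 were the only removals that kept the OsAKR5 call, with edgeR adjusted p up to 0.227 and 0.184 in the others.

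OsAAE3 (Os04g0683700), a ligase-like gene annotated to blast resistance, floret development and lignin, narrowly missed the threshold in the leaf. It had 1120.4, 1308 and 1358 CPM in GM leaves, against 943, 985 and 992 CPM in CF leaves. The groups did not overlap, with a log2 fold change of 0.38 ± 0.09 (SE; edgeR adjusted p = 0.052, n = 3 each). The remaining ligases gave no call: 4CL3 (Os02g0177600) had 76.8, 121 and 113 CPM in GM leaves, against 90.8, 58.3 and 45.4 CPM in CF leaves, and these groups overlapped. 4CL4 (Os06g0656500) had 25.1, 28.4 and 25.9 CPM in GM leaves, against 23.7, 20.4 and 22.6 CPM in CF leaves, with a log2 fold change of 0.26 ± 0.09 (SE; edgeR adjusted p = 0.174).

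**Figure D1:**
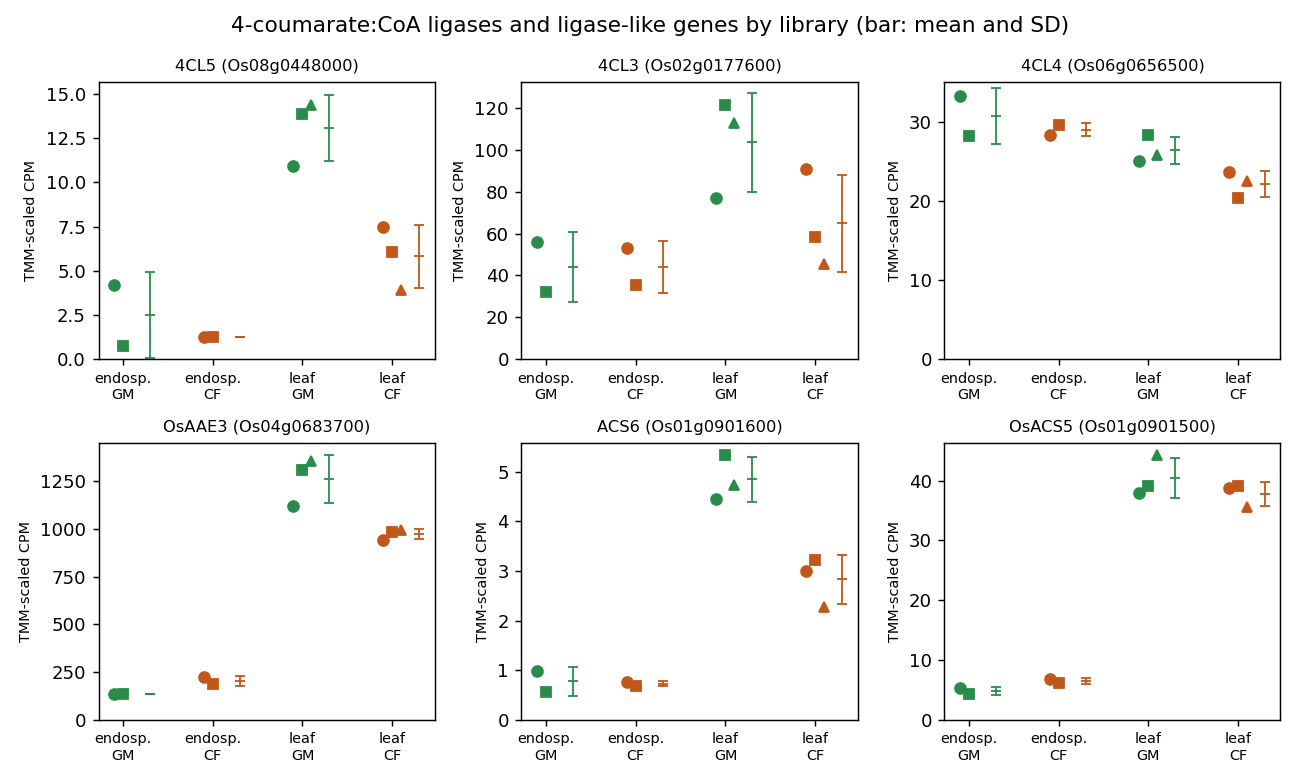
Levels (TMM-scaled CPM, linear axes starting at 0) of 6 ligase and ligase-like genes in each library of endosperm and flag leaf, with GM in green and CF in orange; symbols mark replicates and bars the mean and SD. OsAAE3 spans 1120.4 to 1358 CPM in GM leaves and 943 to 992 CPM in CF leaves, and has 137 and 135 CPM in GM endosperm and 224 and 186 CPM in CF endosperm.

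The PAL genes, at the entry of the pathway, gave no call in the leaf, although 5 of the 6 tested had a positive log2 fold change. PAL1 (Os02g0626100) had 219, 420.4 and 421 CPM in GM leaves, against 241, 157 and 114 CPM in CF leaves. GM replicate 1 lay below CF replicate 1, so the groups overlapped, and the log2 fold change was 1.06 ± 0.39 (SE; edgeR adjusted p = 0.271, n = 3 each). OsPAL4 (Os02g0627100) had 30.9, 69.9 and 71.4 CPM in GM leaves, against 33.3, 18.6 and 12.7 CPM in CF leaves, a log2 fold change of 1.44 ± 0.50 (SE; edgeR adjusted p = 0.257).

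OsPAL7 (Os05g0427400) had 23.5, 50.8 and 45.3 CPM in GM leaves, against 22.5, 16.1 and 10.5 CPM in CF leaves, a log2 fold change of 1.31 ± 0.40 (SE; edgeR adjusted p = 0.201). OsPAL5 (Os04g0518100) had 28.0, 31.0 and 34.2 CPM in GM leaves and 35.2, 32.2 and 31.5 CPM in CF leaves, and these groups overlapped. Summed over the 11 PAL genes, the level was 519, 970.3 and 959 CPM in GM leaves, against 621, 402 and 295 CPM in CF leaves.

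The later lignin steps also gave no call in the leaf. CAD2 (Os02g0187800), the cinnamyl alcohol dehydrogenase known from gold hull mutants, had 63.6, 115 and 98.5 CPM in GM leaves, against 72.9, 48.1 and 34.4 CPM in CF leaves. The groups overlapped at replicate 1, and the log2 fold change was 0.85 ± 0.36 (SE; edgeR adjusted p = 0.331).

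CCoAOMT-1 (Os06g0165800), a caffeoyl-CoA methyltransferase, had 72.97, 107 and 94.8 CPM in GM leaves, against 86.7, 67.7 and 61.7 CPM in CF leaves. CCR20 (Os08g0441500), a reductase annotated to lignin formation, had 54.5, 99.1 and 97.5 CPM in GM leaves, against 83.8, 46.9 and 28.0 CPM in CF leaves. In both genes GM replicate 1 lay below CF replicate 1, and neither passed the test (edgeR adjusted p = 0.296 for CCoAOMT-1 and 0.562 for CCR20). CADL (Os01g0528800), similar to a cinnamyl alcohol dehydrogenase, was level across the leaf, with 127, 136 and 125 CPM under GM and 131, 122 and 118 CPM under CF.

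CCR18 (Os08g0277200), annotated as similar to a cinnamoyl-CoA reductase, had 3.15, 4.49 and 3.11 CPM in GM leaves, against 1.78, 2.03 and 1.98 CPM in CF leaves. The groups did not overlap, with a log2 fold change of 0.89 ± 0.22 (SE; edgeR adjusted p = 0.053). OsCCR19 (Os09g0419200), a reductase annotated to developmental lignification, had 189.6, 219.7 and 203 CPM in GM leaves and 211, 212 and 193 CPM in CF leaves, and the CF range lay within the GM range.

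LAC7 (Os01g0850550) was the single laccase with enough leaf reads to be tested. It had 9.09, 22.6 and 16.5 CPM in GM leaves, against 8.84, 5.55 and 3.66 CPM in CF leaves. The groups did not overlap, but GM replicate 1 and CF replicate 1 nearly met, and the log2 fold change was 1.45 ± 0.43 (SE; edgeR adjusted p = 0.168). In the flavonoid branch, the chalcone synthase OsCHS1 (Os11g0530600) had 63.7, 19.6 and 18.6 CPM in GM leaves, against 45.1, 58.9 and 44.2 CPM in CF leaves. GM replicate 1 stood apart from the other GM leaves there, and the log2 fold change was -0.54 ± 0.55 (SE; edgeR adjusted p = 0.702).

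**Figure D2:**
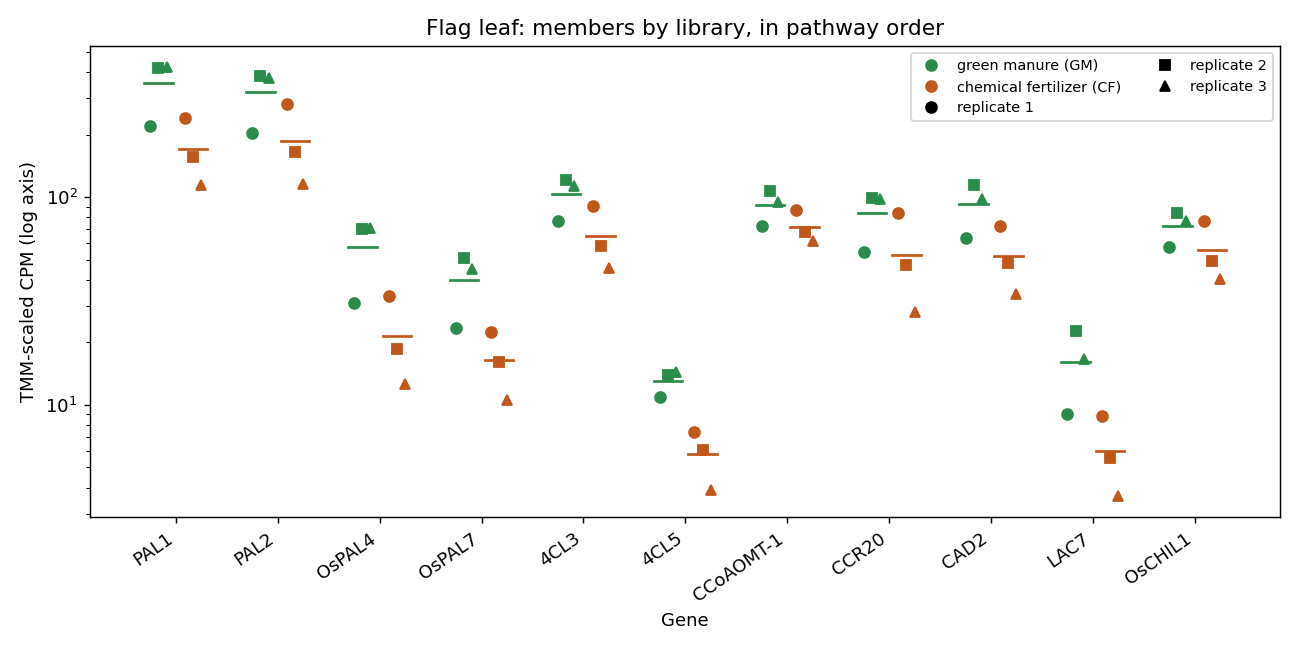
Levels (TMM-scaled CPM, log axis) of 11 genes, chosen from the 15 that rank the leaf libraries alike, in pathway order in the 3 GM and 3 CF flag leaf libraries; symbols mark replicates and horizontal lines group means. In each of these genes GM replicate 1 is the lowest GM leaf, CF replicate 1 the highest CF leaf and CF replicate 3 the lowest CF leaf, as in PAL1 with 219 CPM in GM replicate 1 and 241, 157 and 114 CPM in the CF leaves.

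Many of these genes ranked the leaf libraries alike. Among the 33 with a mean of at least 5 CPM in the leaf, 15 (45.5%) had GM replicate 1 as the lowest GM leaf and the CF leaves in the order replicate 1, 2, 3 from high to low. The same ranking was found in 1070 of 14382 genes (7.44%) at that level. Among those that shared it were PAL1, PAL2, OsPAL4, OsPAL5, OsPAL7, 4CL3, 4CL5, OsACS1, CCoAOMT-1, CCR20, CAD2, LAC7, OsCHIL1 and OsAKR5 (Os04g0167800). The ranking was picked out after the values were seen and is a description with no test, and its part in the leaf calls was not tested.

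In the endosperm, 1 of the 52 tested genes was lower under GM and 0 were higher. Over all 23094 genes tested there, 1.26% changed, 0.0303% higher and 1.23% lower. Of the 52 genes, 34 had a negative and 18 a positive log2 fold change, 11 (21.2%) had an unadjusted p under 0.05, beside 14.6% of all genes tested, and the median was -0.25, beside 0.00 over all genes tested. The gene that fell was OsAAE3, with 137 and 135 CPM in GM endosperm, against 224 and 186 CPM in CF endosperm. Both GM libraries lay below both CF libraries, and the log2 fold change was -0.62 ± 0.11 (SE; edgeR adjusted p = 0.021, n = 2 each). Without CF replicate 1 it was -0.51 and no longer called (edgeR adjusted p = 0.168). The count of 1 moved in each fit with a single endosperm library left out, and so did the calls over all genes. Each such fit keeps 1 library in a group, so its counts are not given.

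By step, 6 of 10 ligase and ligase-like genes were negative in the endosperm, 1 of them called, with a median log2 fold change of -0.13. In addition, 6 of 8 CCR genes, 4 of 6 CAD genes, 5 of 8 laccases and all 3 CCoAOMT genes were negative, with medians of -0.26, -0.15, -0.31 and -0.33, and none of them was called. The PAL genes, with 2 positive and 3 negative, and the chalcone enzymes, with 5 positive and 6 negative, were divided (medians -0.11 and -0.06, none called).

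In 17 of the 52 genes both GM endosperm libraries lay below both CF libraries (20.6% of all genes tested did), in 7 both lay above (26.6% of all genes), and in 28 the groups overlapped. PAL1 and CAD2 were among the 17 without passing the test, while CADL, with 71.9 and 70.8 CPM in GM endosperm and 63.4 and 68.1 CPM in CF endosperm, was among the 7. PAL1 had 420.3 and 415 CPM in GM endosperm, against 634 and 529 CPM in CF endosperm, a log2 fold change of -0.50 ± 0.13 (SE; edgeR adjusted p = 0.110). CAD2 had 45.4 and 39.5 CPM in GM endosperm, against 70.9 and 50.9 CPM in CF endosperm, a log2 fold change of -0.55 ± 0.14 (SE; edgeR adjusted p = 0.122). In both genes the groups did not overlap.

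The laccase LAC12 (Os03g0297900) had 4.05 and 3.74 CPM in GM endosperm, against 7.45 and 4.84 CPM in CF endosperm, a log2 fold change of -0.69 ± 0.22 (SE; edgeR adjusted p = 0.182). OPCL1 (Os03g0132000), a ligase-like gene, had 23.1 and 19.5 CPM in GM endosperm, against 30.2 and 25.8 CPM in CF endosperm. Both genes were lower in both GM libraries than in both CF libraries, and neither passed the test.

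The CCR gene OsCCR10 (Os02g0811800), annotated to drought tolerance and lignin, was counted at very low depth. It had 11 and 20 reads in GM endosperm, against 0 and 1 read in CF endosperm, with edgeR adjusted p = 0.074.

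Markers typical of embryo and aleurone also had lower levels in these GM libraries. All 7 were lower in GM endosperm by their log2 fold change, 4 of them past the test, with a median of -0.79 and sums of 444 to 519 CPM under GM and 921 to 967 CPM under CF. Of 10 green-tissue markers, 8 had a negative log2 fold change (median -0.35); edgeR called 0, with 6 at an unadjusted p under 0.05, and limma-voom called 0 and DESeq2 3. Of 42 starchy endosperm markers, from a list that also holds 8 secretory or processing genes summing to 617 to 707 CPM in leaf, 30 were negative (median -0.29); edgeR called 0, with 5 at an unadjusted p under 0.05, and limma-voom called 0 and DESeq2 2. The median of the enzyme genes was -0.25. Among lists of other pathway genes, endosperm medians were 0.03 for the shikimate route, -0.05 for the cytochrome P450 genes and -0.30 for the hydroxycinnamoyl transferases. They were -0.11 for the later flavonoid genes and 0.07 for the transcription factors. The markers of lignifying cells (3 secondary-wall cellulose synthases and BC1) summed to 6.59 to 7.52 CPM in GM endosperm and 8.50 to 8.74 CPM in CF endosperm, with both tested genes negative and 0 called, 1 at an unadjusted p under 0.05. The part of these cell types in the OsAAE3 result and in the median of the enzyme genes was not tested.

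A few genes were highest in GM endosperm replicate 1 and low in GM replicate 2. OsPAL4 had 12.0 and 0.33 CPM in GM endosperm, against 2.48 and 0.90 CPM in CF endosperm. OsPAL7 had 10.9 and 0.61 CPM in GM endosperm, against 4.49 and 0.55 CPM in CF endosperm. 4CL5 had 4.21 and 0.75 CPM in GM endosperm, against 1.24 and 1.24 CPM in CF endosperm. OsPAL6 (Os04g0518400) had 66 and 0 reads in GM endosperm, against 5 and 0 reads in CF endosperm. The groups overlapped in each of these genes, and the 4CL5 log2 fold change of 0.99 ± 0.96 (SE; edgeR adjusted p = 0.713) turned to -0.75 without GM replicate 1.

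**Figure D3:**
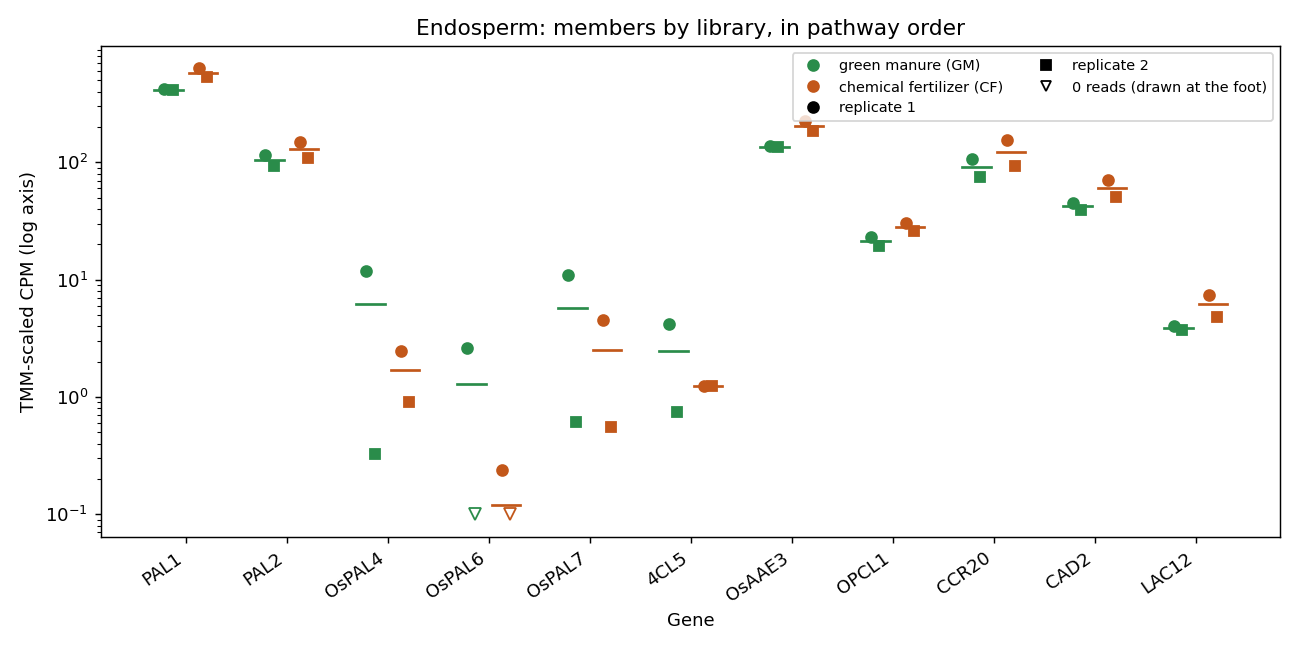
Levels (TMM-scaled CPM, log axis) of 11 genes in pathway order in the 2 GM and 2 CF endosperm libraries; symbols mark replicates, horizontal lines group means and open triangles libraries with 0 reads. OsAAE3 lies lower in both GM libraries (137 and 135 CPM) than in both CF libraries (224 and 186 CPM), while OsPAL4 differs between the GM libraries (12.0 and 0.33 CPM).

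The GM effect was then compared between tissues in 1 model of all 10 libraries. Of 56 genes tested, 1 had a more negative effect in endosperm than in leaf and 0 a more positive one; over all 25035 genes tested 0.615% differed, 0.0599% more positive and 0.555% more negative. That gene was OsAAE3, whose log2 effects differed by -0.97 ± 0.16 (SE; edgeR adjusted p = 0.010). Without endosperm CF replicate 1 the difference missed the threshold (edgeR adjusted p = 0.058), and without endosperm GM replicate 2 a second gene, OsPAL6, passed (edgeR adjusted p = 0.013). PAL1 differed by -1.53 ± 0.53 (SE; edgeR adjusted p = 0.334) and CAD2 by -1.36 ± 0.52 (SE; edgeR adjusted p = 0.383), neither past the threshold. Of the 39 genes tested in both tissues, 15 were negative in endosperm and positive in leaf, 11 positive in both, 10 negative in both and 3 positive in endosperm and negative in leaf. No p-value is given for these counts.

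**Figure D4:**
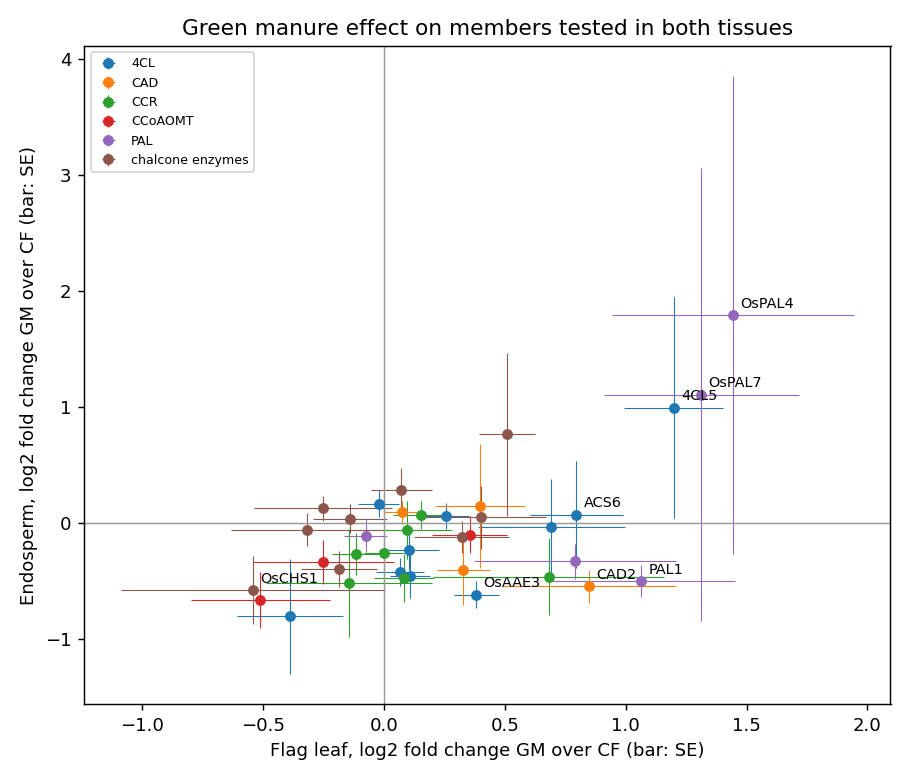
Log2 fold change of GM over CF in endosperm (vertical axis) against that in flag leaf (horizontal axis) for 38 of the 39 genes tested in both tissues, coloured by enzyme step, with SE bars. OsAAE3 lies at -0.62 in endosperm and 0.38 in leaf, and OsPAL4 and OsPAL7 carry wide endosperm errors.

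Between tissues, most of these genes differed whichever fertilizer was used. Under GM, 19 of 56 genes were higher and 32 lower in endosperm than in leaf, beside 82.3% of all genes differing (44.6% higher, 37.7% lower). Under CF, 22 were higher and 23 lower, beside 83.1% of all genes (45% higher, 38.1% lower). A total of 42 (75%) were called under both, beside 77.3% of all genes, 19 of them higher (41.9% of all genes) and 23 lower in endosperm (35.2% of all genes), and 0 in opposite directions (0.148% of all genes). Genes that passed the filter through 1 tissue alone were bound to differ here; of the 39 tested within each tissue, 27 were called under both, 8 higher and 19 lower, beside 73.5%, 34.9% and 38.4% of 18494 such genes. The median log2 ratio over all genes was 0.16 under GM and 0.15 under CF with TMM, and 0.32 under both with upper-quartile scaling.

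Of the 22 laccases, 9 passed the filter between tissues. Apart from LAC7, these had 0 to 8 reads per leaf group and 14 to 226 reads per endosperm group, so they passed through the endosperm and had to be higher there, and their number is no result. Summed over the 22 laccases, the level was 15.5 and 15.4 CPM in GM endosperm, against 9.44, 23.2 and 16.97 CPM in GM leaves, where LAC7 made up most of it. Under CF the sum was 23.2 and 17.6 CPM in endosperm, against 9.17, 6.26 and 4.51 CPM in leaves. LAC12 had 183 reads in GM endosperm and none in GM leaf, at least 48.7-fold higher against a floor of 3 reads over the group. LAC20 (Os11g0108650) was at least 18.1-fold higher under GM and at least 35.2-fold higher under CF by the same floor. LAC7 had 0 reads in all endosperm libraries, against 605 reads in GM leaf and 339 reads in CF leaf. It passed the filter through the leaf and had to be lower in endosperm, so its direction is no result either. By the same floor its endosperm level was at least 252-fold lower under GM and at least 68.4-fold lower under CF.

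The reductases and CCoAOMT genes split by gene. OsCCR19 was lower in endosperm, with a log2 ratio of -8.74 ± 0.17 under GM (SE; edgeR adjusted p = 3.58e-15) and of -8.49 ± 0.17 under CF (SE; edgeR adjusted p = 3.17e-15). Its endosperm levels were 0.43 and 0.51 CPM under GM and 0.67 and 0.41 CPM under CF. Os09g0481400, annotated as similar to CCoAOMT, had a log2 ratio of 4.56 ± 0.23 under GM (SE; edgeR adjusted p = 3.34e-11) and of 4.61 ± 0.20 under CF (SE; edgeR adjusted p = 6.84e-12). It had 25.5 and 25.5 CPM in GM endosperm, against 1.14, 1.19 and 0.92 CPM in GM leaves.

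Among the dehydrogenases, OsCAD7 (Os04g0612700) had 3.38 and 3.36 CPM in GM endosperm, against 0, 0.08 and 0.07 CPM in GM leaves, and log2 ratios of 5.81 under GM and 6.38 under CF. CAD8B (Os09g0400000) ran the other way, with 2.12 and 1.82 CPM in GM endosperm, against 33.7, 40.3 and 37.3 CPM in GM leaves, and log2 ratios of -4.22 under GM and -3.50 under CF. OsCAD7 had 2 reads in each leaf group, so it passed the filter through the endosperm and had to be higher there. The opposite directions of OsCAD7 and CAD8B are therefore no result about the family.

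Chalcone enzymes and ligases also divided. OsCHI2 (Os02g0778500), with a chalcone isomerase domain, was higher in endosperm, with log2 ratios of 3.99 under GM and 3.58 under CF. OsCHS1 was lower there, at -3.63 under GM and -3.60 under CF. The class IV isomerase-like pair divided too: OsCHIL1 (Os11g0116300) had log2 ratios of -3.47 under GM and -3.14 under CF, and OsCHIL2 (Os12g0115700) 2.42 under GM and 2.13 under CF. PKS9 (Os07g0271500), similar to chalcone synthase, had no leaf reads and was at least 33.0-fold higher in endosperm under GM and at least 73.8-fold higher under CF. It passed the filter through the endosperm and had to be higher there, so its direction is no result. Of the 11 ligase and ligase-like genes, 0 were higher and 10 lower in endosperm under GM, beside 44.6% and 37.7% of all genes. Under CF, 1 was higher and 7 lower, beside 45% and 38.1% of all genes. The gene higher under CF was 4CL4. Among the 10 lower under GM, 4CL1 (Os08g0245200) passed the filter through the leaf, with 34 reads in GM leaf and 28 reads in CF leaf. It had 12 reads in GM endosperm and 4 reads in CF endosperm. It was thus bound to be lower in endosperm, and its direction is no result.

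PAL1 was called higher in endosperm under CF but not under GM. Its log2 ratio was 0.24 ± 0.37 under GM (SE; edgeR adjusted p = 0.566) and 1.77 ± 0.37 under CF (SE; edgeR adjusted p = 0.00263). The difference between these ratios is the PAL1 difference of -1.53 given above, which missed the threshold (edgeR adjusted p = 0.334). OsPAL6 was lower in endosperm, at -3.29 ± 0.79 under GM (SE; edgeR adjusted p = 0.00585) and -6.16 ± 1.25 under CF (SE; edgeR adjusted p = 0.00251). It passed the filter through the leaf, with 502 reads in GM leaf and 612 reads in CF leaf, so it was bound to be lower in endosperm. All its endosperm reads came from replicate 1 of each group, as given above; without GM replicate 2 the ratio under GM was -2.38, and without GM replicate 1 no GM endosperm read remained.

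**Figure D5:**
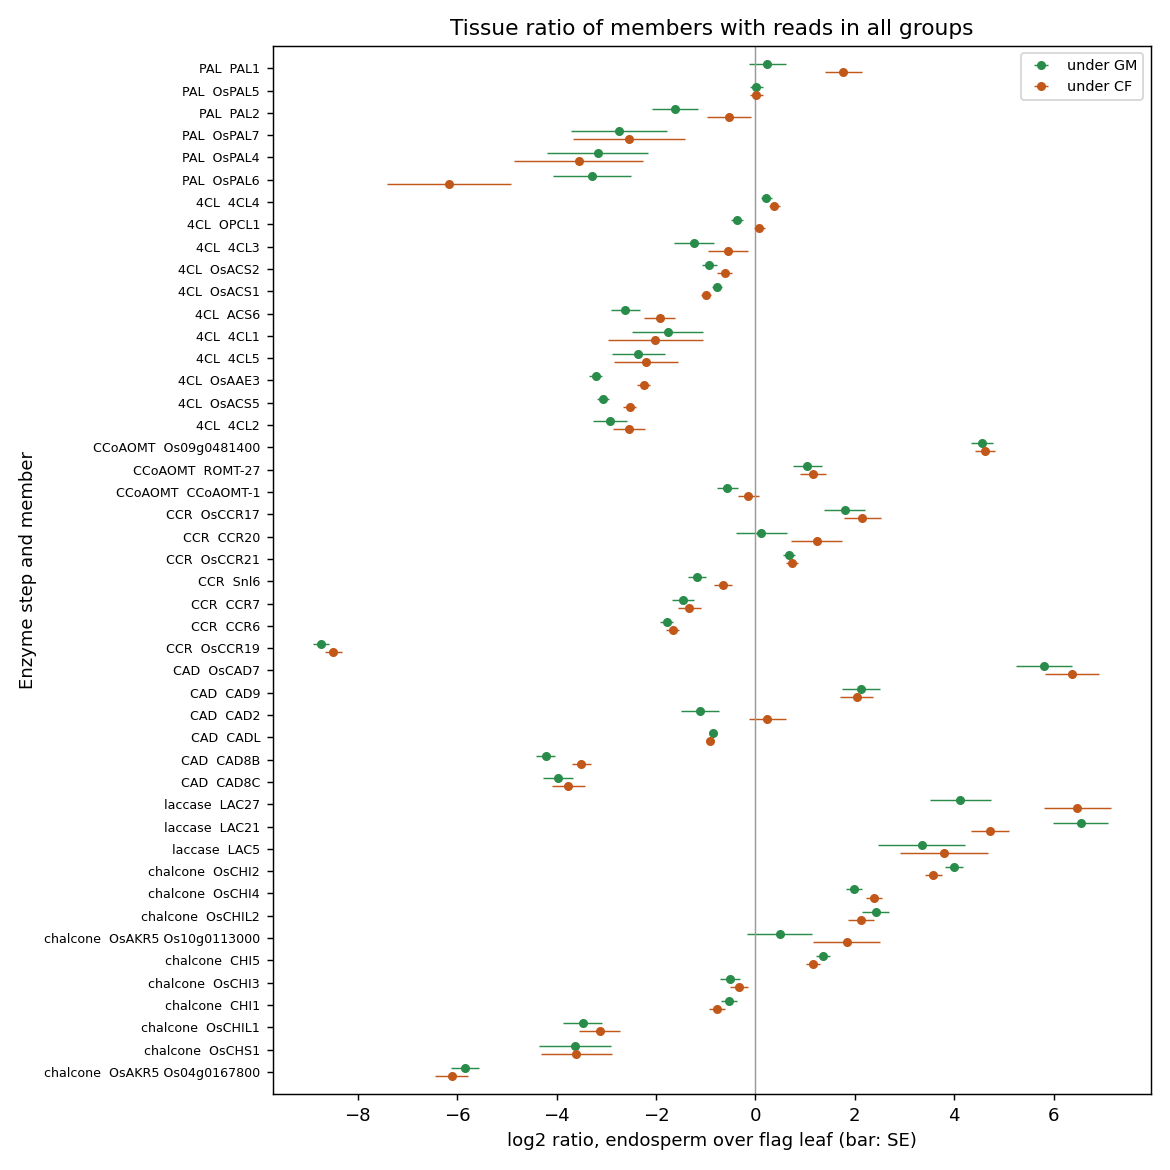
Log2 ratio of endosperm over flag leaf with SE bars for 46 genes with reads in all 4 groups, by enzyme step, under GM (green) and CF (orange). OsCCR19 lies lowest at -8.74 under GM and -8.49 under CF. The 3 laccases shown passed the filter through the endosperm and so had to lie to the right of 0. OsCAD7, CAD9 and OsAKR5 (Os10g0113000) also passed through the endosperm alone. OsPAL6 and 4CL1 passed through the leaf alone and so had to lie to the left. LAC7, with 0 endosperm reads, is not shown.

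The other genes of the pathway were read from lists by description. Among 34 genes matched to the shikimate route to phenylalanine, 2 of 27 tested in the leaf were higher under GM and 0 of 30 changed in endosperm. That list also holds genes annotated otherwise, such as an isochorismate synthase and a prephenate dehydrogenase. Chorismate synthase (CS, Os03g0254800) had 113, 110.0 and 105 CPM in GM leaves, against 90.7, 93.1 and 82.0 CPM in CF leaves, a log2 fold change of 0.31 ± 0.08 (SE; edgeR adjusted p = 0.049). The arogenate dehydratase OsADT (Os04g0406600) had 4.81, 5.50 and 5.66 CPM in GM leaves, against 3.11, 2.98 and 3.12 CPM in CF leaves, a log2 fold change of 0.80 ± 0.16 (SE; edgeR adjusted p = 0.027).

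In the leaf, edgeR called 0 of 3 cytochrome P450 genes of monolignol synthesis, 0 of 2 hydroxycinnamoyl transferases, 0 of 10 later flavonoid genes and 0 of 1 secondary-wall gene, with 2, 2, 4 and 1 of them at an unadjusted p under 0.05. DESeq2 called 1 of the P450 genes and 1 of the transferases there, and limma-voom called 0 of all 4 lists. HCT1 (Os04g0500700), a hydroxycinnamoyl transferase, had 161, 229.9 and 215 CPM in GM leaves, against 171, 119.9 and 96.5 CPM in CF leaves, a log2 fold change of 0.66 (edgeR adjusted p = 0.207). In endosperm, edgeR, DESeq2 and limma-voom each called 0 of 4, 0 of 3, 0 of 16 and 0 of 2 of these genes, with 1, 1, 3 and 1 at an unadjusted p under 0.05 in edgeR. None of 9 dirigent genes had enough reads for a test. A list of 21 transcription factor genes was drawn up by matching symbols of lignin or defence regulators. It also holds factors annotated otherwise, such as OsMYB80 (tapetal and pollen development). Of these genes, 1 of 10 tested in the leaf was higher under GM and 0 of 13 changed in endosperm. That factor was WRKY53 (Os05g0343400), with 126, 141 and 140.1 CPM in GM leaves, against 100.3, 106 and 95.1 CPM in CF leaves, a log2 fold change of 0.44 (edgeR adjusted p = 0.017).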

How the data were processed

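The deposited count tables hold raw counts of uniquely assigned exon reads per locus, 1 table per tissue, from poly(A) RNA and directional libraries per the labels. Per the submitters' processing notes, the build was IRGSP-1.0. No aligner, counter or strand setting is named in the labels or file headers, so whether overlapping or antisense genes were counted apart is not known here, and near-identical copies can lose shared reads. Sequences and gene lengths were not used here. A few members are counted in the totals but not reported here by name.

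Members were found by description, and the members and lists were chosen with earlier results of these data known. Counts were fitted with edgeR 4.0.16 in R 4.3.3 (quasi-likelihood, robust, TMM, filterByExpr with a minimum count of 10), without a replicate block, on 4 endosperm or 6 leaf libraries, and on all 10 for tissue comparisons. SE is the log2 fold change over the root of F. p-values were adjusted by Benjamini-Hochberg over all genes, with 0.05 as threshold. The fits were tested on simulated data. Groups came from the sample titles. Genes were named if called, if they had the highest mean or smallest p of an enzyme step in a tissue, or the most extreme tissue ratios at 5 CPM or more; 4CL5 was always named. Others were added after their values were seen (4CL1, 4CL3, 4CL4, PAL2, OsPAL4, OsPAL5, OPCL1, OsCHS1, OsCHIL2, OsCAD7, CAD9, Os10g0113000, PKS9, LAC20 and HCT1). Alternatives were other scalings and filters, DESeq2 1.42.0, limma-voom 3.58.1, a replicate block, 20 abundant genes removed, leaf libraries thinned to equal depth, and single libraries left out. Library totals, 12200510 to 25827356 counts, set the precision; floors cover counting error only.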

Additional observations from a re-analysis of the deposited data

Results flagged for a closer look

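OsAAE3 (Os04g0683700) was singled out because its response to green manure differed between the tissues by a test of the difference itself: the log2 fold change of GM over CF in endosperm minus that in flag leaf was -0.969 (edgeR adjusted p = 0.010). In endosperm it had 137 and 135 CPM under GM and 224 and 186 CPM under CF; in leaf it had 1120.4, 1308 and 1358 CPM under GM and 943, 985 and 992 CPM under CF. Markers of several cell types moved with the endosperm side of this difference: all 7 embryo and aleurone markers (median -0.79), 8 of 10 green-tissue markers (median -0.35), 30 of 42 starchy endosperm markers (median -0.29) and both tested markers of lignifying cells had negative log2 fold changes there. Their part in it was not tested.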

How the results depend on the processing

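The number of genes called in endosperm, 1, became 12 without the low-count filter (4 higher, 8 lower) and 2 with DESeq2, and ran between 0 and 11 when single libraries were left out. In flag leaf the 3 calls became 5 without the filter, 7 with limma-voom and 0 with all 10 libraries in 1 fit, and ran between 0 and 6 with single libraries left out. For the difference between tissues the 1 call ran between 0 and 2. Between tissues, a filter of 5 CPM left 32 calls in place of 51 under GM and 27 in place of 45 under CF, with fewer genes tested; leaving out single libraries gave 44 to 54 and 43 to 48. Over all genes, removing the filter raised the calls to 368 higher and 1002 lower in endosperm (7 and 285 with it), and in leaf to 776 and 211 (499 and 95 with it). DESeq2 called 7 higher and 292 lower over all genes in endosperm. In leaf, limma-voom called 483 and 87 over all genes, and the fit of all 10 libraries 268 and 67. ACS6 lost its leaf call under RLE scaling (adjusted p = 0.053), upper-quartile scaling (0.056) and 1 fit of all libraries (0.094), and in that fit 4CL5 (0.271) and OsAKR5 (0.141) lost theirs. The direction turned for CCoAOMT-1 in endosperm without GM replicate 2 (range with single libraries left out -0.38 to 0.13), for 4CL5 in endosperm without GM replicate 1 (range -0.75 to 1.73), and for OsCCR19 in leaf, whose value was near 0: 0.00047 with the 5 CPM filter, and 0.015, 0.023, 0.048 and 0.0084 without CF replicate 1, CF replicate 2, GM replicate 1 and GM replicate 3, beside -0.067 without GM replicate 2. Apart from the fewer genes tested, the cause was not tested.

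Replicate numbers are shared between the groups, but the deviations of same-numbered libraries correlated at 0.036 in endosperm and at 0.029, 0.003 and -0.005 in leaf, so the numbers were not taken as pairs. With the replicate block the calls were 0 in endosperm (OsAAE3 at adjusted p = 0.072), 4 in leaf, 2 for the difference, 40 between tissues under GM and 43 under CF. Low depth limits the laccases and PKS genes, many of which had few reads.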
